A study of Mus musculus with 6 samples.

Results

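Cell cycle and proliferation genes were followed by symbol through the count files: 49 genes of the 53379 gene identifiers, comprising 27 genes of mitosis, 16 of S phase (DNA replication) and 6 of G1 and the G1/S transition. All 49 were found once, and all 49 passed the expression filter that left 17221 genes for testing. The 6 libraries were made from total RNA of the cerebral cortex of C57BL/6 mice aged 2 months, 3 labelled GTF2ird1-/- (knockout, replicates 5, 6 and 7) and 3 labelled wild type (replicates 1, 3 and 4). Gtf2ird1 is a transcription factor gene within the Williams syndrome deletion, and the title of the series describes the material as Gad2+ neurons, the cells that make the inhibitory transmitter GABA. The sources used here do not give the way the cells were isolated, the mutated part of the gene, or whether a library is 1 animal or a pool. The p-values therefore measure only the spread between these libraries, which may be technical.

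A dividing cell passes through G1, copies its DNA in S phase and then segregates the copies in mitosis. D-type cyclins with Cdk4 or Cdk6 release E2F factors, which turn on replication genes, and a later wave led by Foxm1 and B-Myb turns on mitosis genes. In the adult mouse brain the main dividing cells are neural progenitors with their daughter neuroblasts, which carry doublecortin (Dcx), and precursors of oligodendrocytes, while mature neurons do not divide. Microglia, the brain's macrophages, renew slowly and carry the receptor Csf1r.

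Total gene counts per library ranged from 13627501 (wild type replicate 3) to 30544144 (knockout replicate 7). Levels below are CPM, counts scaled to the effective library size (TMM scaling by edgeR), and a gene without any read could have up to 3 counts, or between 0.0937 and 0.272 CPM by library. Values stand in the order of replicates 5, 6 and 7 for knockout, and of replicates 1, 3 and 4 for wild type. Gtf2ird1 itself had 49.7, 40.6 and 48.8 CPM in knockout, against 23.3, 31.5 and 52.7 CPM in wild type (log2 fold change 0.37, edgeR adjusted p = 0.703), and a count over the whole gene does not check the labels. Gad2 had 121, 82.0 and 59.8 CPM in knockout, against 29.0, 29.5 and 107 CPM in wild type. The microglial gene Csf1r lay far above it, at 6637, 8167 and 8340 CPM in knockout and 10166, 10855 and 7536 CPM in wild type, so the labelled cell type did not lead in these libraries. Dcx had 250, 215 and 172 CPM in knockout, against 74.6, 89.2 and 482 CPM in wild type.

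Promoters of mitosis genes are known for CHR elements and those of S phase genes for E2F sites, and some of each are printed to show them. The printed ones were picked for their matches: per phase, the 3 genes with the smallest edgeR p whose window held them. For mitosis genes these were a CHR with a CCAAT match, and for S phase genes an E2F match. Windows without them, such as those of Ccnb1, Birc5, Nusap1 and Rrm1, were passed over. A window ran from 250 bases before to 50 bases after each start in the RefSeq promoter table for GRCm38.p6, 300 bases in all, and 3 motifs were searched on both strands. The first was the CHR element (cell cycle genes homology region, TTTGAA or TTCGAA), the second the CCAAT box (CCAAT), and the third the E2F site (TTTGGCGC, TTTCCCGC, TTTCGCGC or TTTGCCGC). For each of the mitosis genes below, capitals mark CHR and CCAAT matches, on either strand, and CCAATTGG in Ube2c holds an overlapping pair of CCAAT matches.
Ube2c promoter, chr2:164769679-164769978, plus strand: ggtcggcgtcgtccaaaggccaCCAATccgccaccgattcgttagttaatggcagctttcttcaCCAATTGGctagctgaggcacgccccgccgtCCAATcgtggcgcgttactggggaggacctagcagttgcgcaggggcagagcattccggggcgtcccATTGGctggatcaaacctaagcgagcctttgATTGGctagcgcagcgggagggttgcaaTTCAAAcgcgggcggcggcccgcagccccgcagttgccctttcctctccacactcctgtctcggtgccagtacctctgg
Cenpa promoter, chr5:30666636-30666935, plus strand: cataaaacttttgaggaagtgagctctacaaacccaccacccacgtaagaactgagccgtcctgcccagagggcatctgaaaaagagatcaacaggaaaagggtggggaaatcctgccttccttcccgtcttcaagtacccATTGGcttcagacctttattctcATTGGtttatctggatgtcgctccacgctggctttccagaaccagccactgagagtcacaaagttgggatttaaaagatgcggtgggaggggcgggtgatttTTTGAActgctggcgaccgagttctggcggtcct
Prc1 promoter, chr7:80294201-80294500, plus strand: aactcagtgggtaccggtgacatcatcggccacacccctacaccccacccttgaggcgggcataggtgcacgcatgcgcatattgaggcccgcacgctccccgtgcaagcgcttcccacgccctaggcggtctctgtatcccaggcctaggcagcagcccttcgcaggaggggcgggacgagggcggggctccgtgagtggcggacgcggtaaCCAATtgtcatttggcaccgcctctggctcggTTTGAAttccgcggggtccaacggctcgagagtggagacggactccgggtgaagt
In the S phase genes, capitals mark E2F matches alone, on either strand, and an overlapping pair in Mcm6 forms a single run. The CCAAT matches of Mcm3 (3) and Mcm6 (2) are in lower case.
Mcm3 promoter, chr1:20820263-20820562, minus strand: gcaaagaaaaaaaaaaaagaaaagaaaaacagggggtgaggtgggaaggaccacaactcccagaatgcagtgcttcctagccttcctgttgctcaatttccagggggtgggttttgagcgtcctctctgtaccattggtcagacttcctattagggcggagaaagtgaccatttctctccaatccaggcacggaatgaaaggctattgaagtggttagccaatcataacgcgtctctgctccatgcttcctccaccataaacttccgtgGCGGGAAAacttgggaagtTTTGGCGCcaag
Cdt1 promoter, chr8:122567765-122568064, plus strand: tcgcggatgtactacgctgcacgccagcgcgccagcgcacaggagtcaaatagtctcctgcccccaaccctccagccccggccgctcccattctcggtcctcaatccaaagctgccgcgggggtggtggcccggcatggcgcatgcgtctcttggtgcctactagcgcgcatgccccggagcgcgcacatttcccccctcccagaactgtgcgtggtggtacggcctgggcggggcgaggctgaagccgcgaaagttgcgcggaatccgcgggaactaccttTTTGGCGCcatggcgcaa
Mcm6 promoter, chr1:128359656-128359955, minus strand: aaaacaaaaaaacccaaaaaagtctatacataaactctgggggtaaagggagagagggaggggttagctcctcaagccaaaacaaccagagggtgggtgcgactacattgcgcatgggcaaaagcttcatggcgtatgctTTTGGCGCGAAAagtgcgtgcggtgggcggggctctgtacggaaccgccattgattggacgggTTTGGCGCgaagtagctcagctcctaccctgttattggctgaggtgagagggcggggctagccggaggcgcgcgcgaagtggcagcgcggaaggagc
The CHR match began 29 bases before the first base of the transcript in Ube2c, 5 bases before it in Prc1 and 16 bases after it in Cenpa.

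Among the 27 mitosis genes, 21 had a promoter in the table, with 22 windows. Of these windows 18 (81.8%) held a CHR match, 19 (86.4%) a CCAAT match and 17 (77.3%) both, while 1 (4.55%) held an E2F match. Of the 16 S phase genes, 14 matched, with 16 windows, of which 7 (43.8%) held an E2F match, 3 (18.8%) a CHR match and 12 (75.0%) a CCAAT match. The 3 windows of the G1 and G1/S genes held none of the 3 motifs. Over all 32851 windows of the table the shares were 19.2% for CHR, 37.4% for CCAAT, 7.52% for both and 2.26% for E2F. A match describes the letters only, and binding was not measured here.

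The comparison of knockout with wild type asked whether these genes differed in level with the genotype. No gene of the 49 passed an edgeR adjusted p of 0.05 (0 of 49, against 0.00581% of all tested genes, a single gene), and the smallest adjusted p was 0.637. At an unadjusted p under 0.05, edgeR gave 5 of the 49 (7.25% of all tested genes), DESeq2 17 (5.82%) and limma-voom 24 (8.62%). No gene of the 49 passed after adjustment with any of the 3 tools, where 0.115% of the genes tested passed DESeq2's adjustment. The 5 by edgeR were Ube2c, Kif20a and Ccnb1, higher in knockout (4.48% of all tested genes were), and Mcm3 and Ccnd1, lower in knockout (2.77% were).

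Log2 fold changes are described by phase, with no test between phases. All 27 mitosis genes had a positive log2 fold change of knockout over wild type, with a median of 1.03 and a range from 0.11 (Ccnb2) to 1.60 (Birc5). The 16 S phase genes divided into 10 positive and 6 negative, with a median of 0.15, and the 6 G1 and G1/S genes into 4 positive and 2 negative, with a median of 0.15. Over all tested genes 46.3% were positive and the median was -0.03. The mitosis genes share the same 6 libraries and move together in them, so their number is not a number of independent observations.

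**Figure D1:**
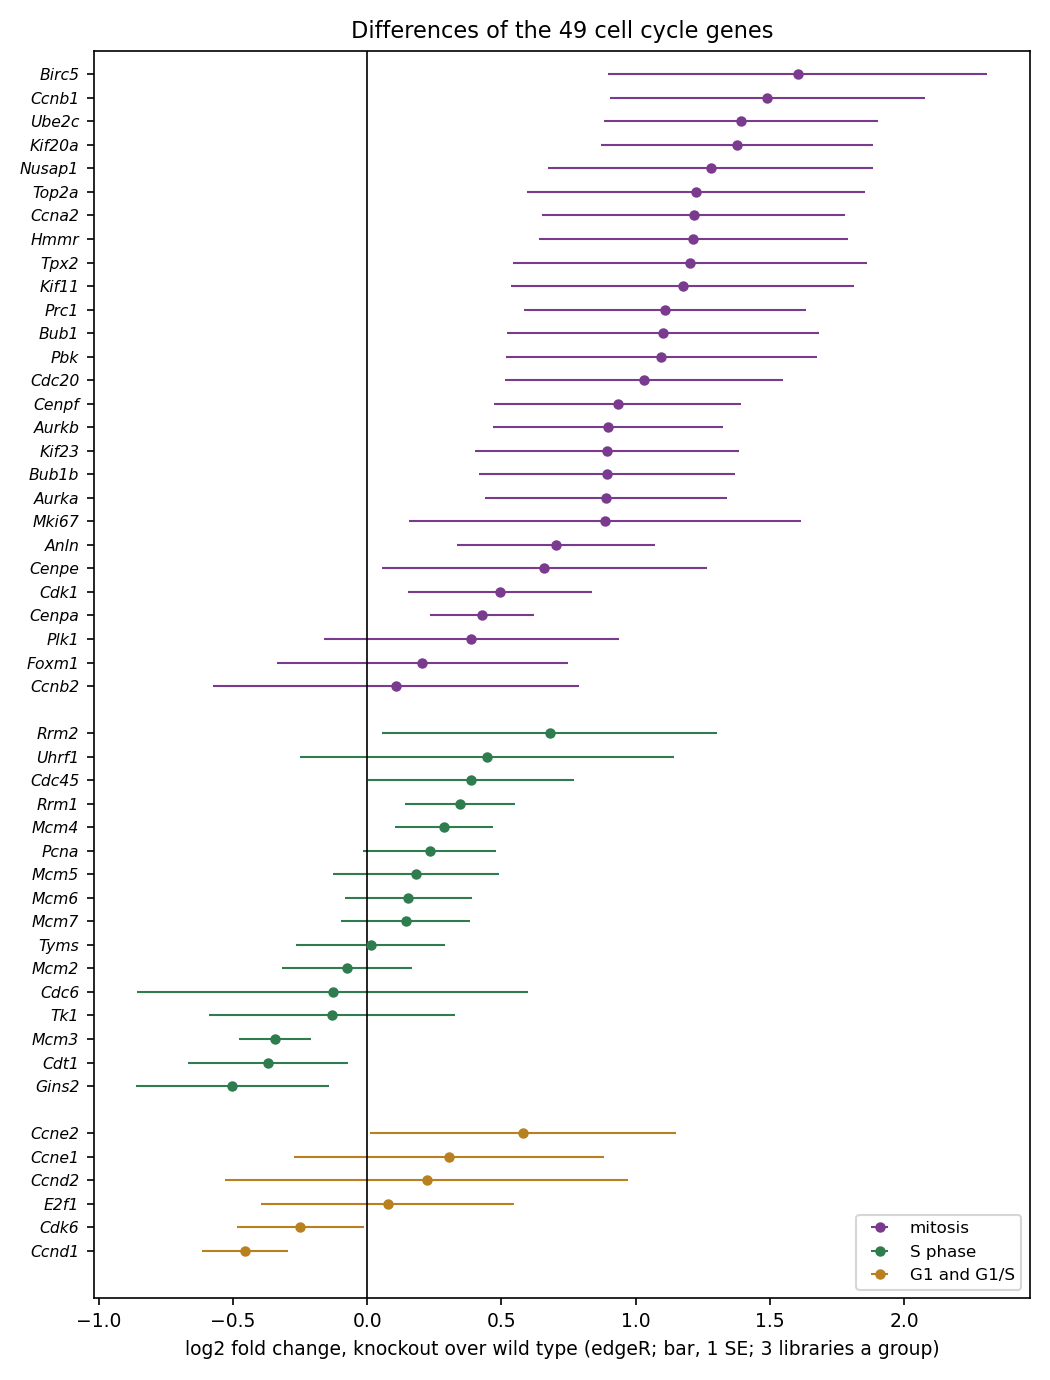
Log2 fold change of knockout over wild type (edgeR, x axis) with its standard error (bars) for each of the 49 genes, grouped by phase. The 27 mitosis genes all lie right of 0, with Ccnb2 nearest to 0 at 0.11, and the S phase and G1 genes lie on both sides.

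Cyclins, kinases and checkpoint genes drive entry into and exit from mitosis. Ube2c, the ubiquitin-conjugating enzyme of the anaphase-promoting complex, had 8.52, 4.61 and 4.97 CPM in knockout, against 1.46, 1.36 and 4.05 CPM in wild type (log2 fold change 1.39 ± 0.51, SE; edgeR adjusted p = 0.637). Its lowest knockout library lay above its highest wild type library, wild type replicate 4. Ccnb1, the B-type cyclin that activates Cdk1 for mitotic entry, had 18.6, 13.3 and 8.75 CPM in knockout, against 2.82, 2.08 and 9.47 CPM in wild type (1.49 ± 0.59, SE; edgeR adjusted p = 0.637). Here wild type replicate 4 exceeded knockout replicate 7, so the groups overlapped. Birc5 (survivin), a subunit of the chromosomal passenger complex, had 5.98, 3.59 and 3.84 CPM in knockout and 0.974, 0.272 and 3.08 CPM in wild type, with the value of wild type replicate 3 at the 3-count limit. Ccna2, the cyclin of S phase and G2, had 21.4, 16.5 and 10.7 CPM in knockout and 3.62, 3.53 and 13.7 CPM in wild type. Both genes were lowest in wild type replicates 1 and 3, and the groups overlapped in Ccna2 alone.

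Cdc20, an activator of the anaphase-promoting complex, had 12.4, 7.79 and 6.87 CPM in knockout and 2.37, 2.72 and 8.10 CPM in wild type. Pbk, a mitotic kinase, had 8.91, 7.97 and 4.97 CPM in knockout and 1.53, 1.99 and 6.68 CPM in wild type. In both, wild type replicate 4 lay inside the range of the knockout libraries. The smallest differences of the group belonged to Ccnb2, the second B-type cyclin, the kinase Plk1 and the transcription factor Foxm1, with log2 fold changes of 0.11, 0.39 and 0.21 (edgeR adjusted p = 0.966, 0.834 and 0.914). Foxm1 had 8.48, 6.95 and 10.4 CPM in knockout and 2.96, 5.26 and 14.3 CPM in wild type, and was highest in wild type replicate 4. The kinase Aurkb, which shares a complex with Birc5, was the other gene of this group with fully separated libraries, at 5.55, 4.97 and 4.87 CPM in knockout and 1.81, 1.81 and 4.62 CPM in wild type.

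Mki67 encodes Ki-67, the coat protein of mitotic chromosomes that is used to stain cycling cells. It had 94.8, 75.7 and 63.2 CPM in knockout, against 13.1, 15.2 and 98.1 CPM in wild type (0.88 ± 0.73, SE; edgeR adjusted p = 0.717). Wild type replicate 4 was the highest of the 6 libraries, and wild type replicates 1 and 3 were the lowest. Top2a, the topoisomerase that untangles DNA before chromosomes separate, had 89.6, 67.2 and 48.0 CPM in knockout, against 12.7, 12.6 and 62.3 CPM in wild type (1.22 ± 0.63, SE; edgeR adjusted p = 0.637). Cenpf, a kinetochore-associated protein, had 40.9, 31.2 and 27.7 CPM in knockout and 9.33, 11 and 32 CPM in wild type. In Top2a and Cenpf wild type replicate 4 lay within the range of the knockout libraries. Cenpa, the histone H3 variant of the centromere, varied least among the mitosis genes, at 18.1, 14.6 and 15.3 CPM in knockout and 10.7, 11.2 and 13.8 CPM in wild type (0.43 ± 0.19, SE). The knockout libraries of Cenpa lay above those of wild type, the nearest pair being knockout replicate 6 and wild type replicate 4.

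Genes of the spindle and of cytokinesis, the final division of the cell, were also lowest in wild type replicates 1 and 3. Kif20a, a kinesin of the central spindle, had 12.8, 9.41 and 7.31 CPM in knockout, against 1.98, 2.45 and 6.91 CPM in wild type (1.38 ± 0.51, SE; edgeR adjusted p = 0.637), with separated groups. Of its exon bases 29.3% lie opposite exons of Cdc23, and whether the counting used strand is not given. Nusap1, which bundles spindle microtubules, had 11.5, 11.4 and 5.90 CPM in knockout and 2.16, 1.72 and 7.93 CPM in wild type. Prc1, which cross-links microtubules of the midzone, had 22.8, 16.8 and 12.9 CPM in knockout and 4.31, 4.44 and 15.5 CPM in wild type. Hmmr, a microtubule-binding protein of the spindle, had 9.27, 7.79 and 5.72 CPM in knockout and 1.64, 1.63 and 6.51 CPM in wild type. In all 3, wild type replicate 4 lay between the knockout libraries and wild type replicates 1 and 3 lay far below. The motor Kif11, which pushes spindle poles apart, had 35.7, 28.9 and 18.3 CPM in knockout and 4.8, 5.8 and 26 CPM in wild type. Tpx2, an activator of Aurora A, had 20.5, 13.5 and 11.9 CPM in knockout and 2.99, 2.45 and 14.4 CPM in wild type. Kif23 and Anln, of the midzone and the contractile ring, had log2 fold changes of 0.89 and 0.70, and their groups overlapped.

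Across the mitosis genes the same few libraries were highest or lowest. Of the 27 genes, 22 were highest in knockout replicate 5 and 5 in wild type replicate 4, while 13 were lowest in wild type replicate 1 and 14 in wild type replicate 3. Over all tested genes these shares were 19.9% and 23.8% for the highest, and 15.4% and 20.6% for the lowest library. All 27 had both wild type replicates 1 and 3 below every knockout library, and in 22 wild type replicate 4 lay within or above the knockout range. The shares of all tested genes with these patterns were not computed, so how usual they are is not known. In 5 (Ube2c, Aurkb, Birc5, Cenpa and Kif20a) every knockout library lay above every wild type library, which held for 6.34% of all tested genes. The summed level was 549, 421 and 344 CPM in knockout, against 115, 116 and 441 CPM in wild type (mean 438 ± 104 and 224 ± 188 CPM, SD, n = 3 each). The highest library exceeded the lowest by between 1.70 times (Cenpa) and 22.0 times (Birc5), with a median of 5.68. The median of that ratio was 1.66 within the knockout libraries and 3.99 within wild type.

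**Figure D2:**
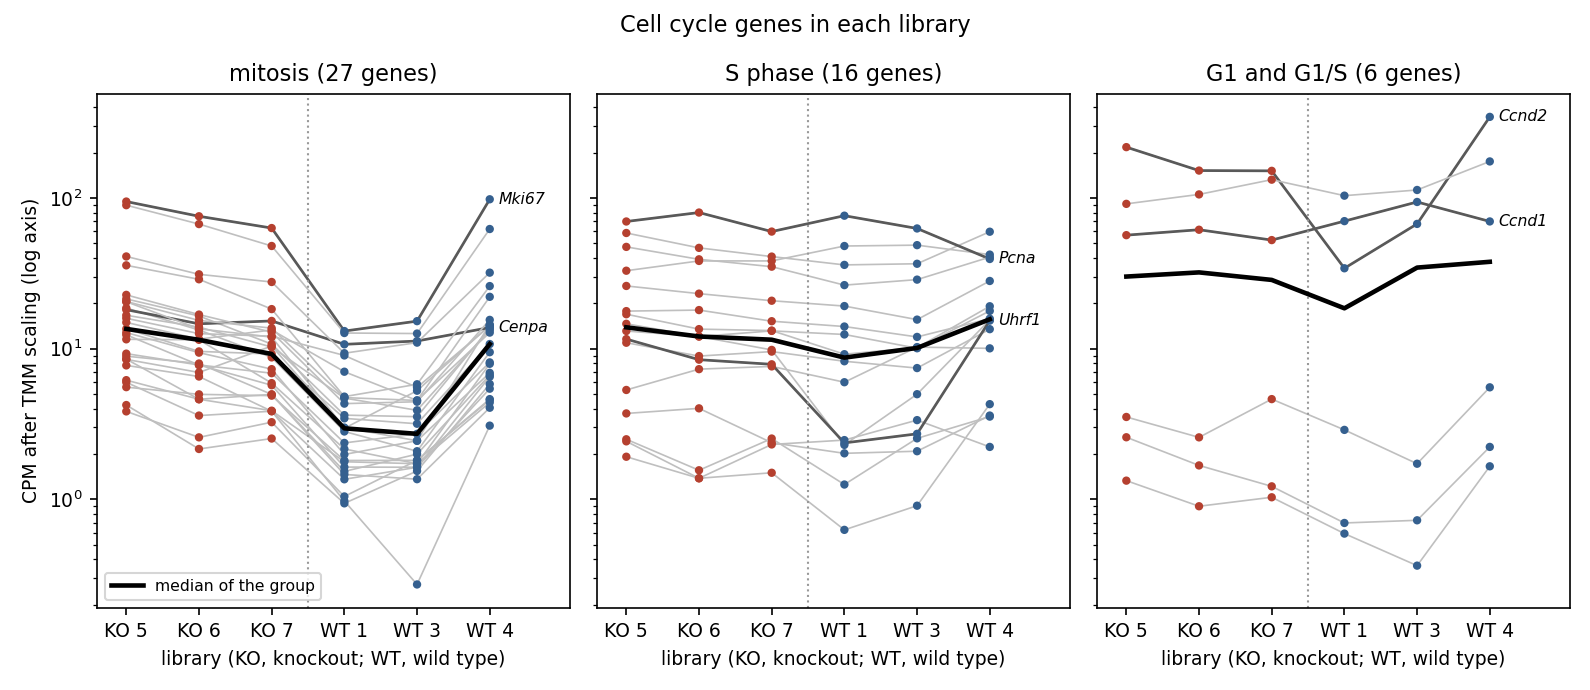
Level in CPM (log axis) of the 49 genes in each of the 6 libraries, knockout replicates left of wild type replicates, with the mitosis, S phase and G1 genes apart and the median as a thick line. The mitosis genes drop together in wild type replicates 1 and 3 and return in wild type replicate 4, where their sum is 441 CPM, while the S phase sum stays between 259 and 336 CPM.

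S phase genes were more level across the libraries. Their summed level was 336, 316 and 280 CPM in knockout, against 267, 259 and 331 CPM in wild type (mean 310.5 ± 28.3 and 285 ± 39.4 CPM, SD, n = 3 each). The highest library exceeded the lowest by a median of 1.96 times, from 1.48 (Mcm3) to 6.83 (Cdc6). Of the 16, 9 were highest in wild type replicate 4 and 8 were lowest in wild type replicate 1. Per 100 CPM of S phase genes, the mitosis genes held 164, 133 and 123 CPM in knockout, against 43.2, 44.8 and 133 CPM in wild type. The ratio of wild type replicate 4 thus lay inside the knockout range, and those of wild type replicates 1 and 3 lay below it.

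Mcm2 to Mcm7 form the ring-shaped helicase that opens DNA, Cdc6 and Cdt1 load it, and Cdc45 and the GINS complex, with Gins2, activate it. Mcm3 had 32.9, 38.2 and 38.2 CPM in knockout and 48.0, 48.7 and 42.1 CPM in wild type (log2 fold change -0.34 ± 0.13, SE; edgeR adjusted p = 0.637). Every knockout library of Mcm3 lay below every wild type library, which held for 6.68% of all tested genes, and of the 16 S phase genes for this one only. Mcm4 had 17.7, 18 and 15.2 CPM in knockout and 14, 12 and 15.8 CPM in wild type, with overlap. Mcm7 had 58.6, 46.7 and 40.9 CPM in knockout and 36, 36.6 and 59.8 CPM in wild type, and was highest in wild type replicate 4. Cdt1 had 5.32, 7.31 and 7.62 CPM in knockout and 5.98, 10.2 and 10.04 CPM in wild type (-0.37 ± 0.30, SE). Gins2 had 1.92, 1.38 and 2.31 CPM in knockout and 2.47, 3.35 and 2.23 CPM in wild type (-0.50 ± 0.36, SE). Its level is uncertain, since 67.3% of its exon bases lie opposite exons of Gse1. Mcm2, Mcm5, Mcm6, Cdc6 and Cdc45 had log2 fold changes between -0.13 and 0.39, and their groups overlapped.

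Pcna, the sliding clamp of the replication fork, was the member with the highest level per length, a mean RPKM (reads per kilobase of exon, scaled to library size) of 27 over the 6 libraries. It had 69.9, 80.1 and 59.9 CPM in knockout and 76.3, 62.8 and 39.4 CPM in wild type (0.23 ± 0.25, SE; edgeR adjusted p = 0.773), and was lowest in wild type replicate 4, where most S phase genes were highest. The ribonucleotide reductase subunits, which make DNA precursors, differed from each other. The large subunit Rrm1 had 47.4, 39.2 and 35.0 CPM in knockout and 26.4, 28.7 and 40.5 CPM in wild type. The small subunit Rrm2, which cells degrade outside S phase and G2, had 14.6, 12 and 9.81 CPM in knockout and 2.30, 4.98 and 15.5 CPM in wild type (0.68 ± 0.62, SE). Uhrf1, which keeps DNA methylation through replication, had 11.6, 8.45 and 7.87 CPM in knockout and 2.37, 2.72 and 15.4 CPM in wild type. Rrm2 and Uhrf1 followed the order of the mitosis genes, low in wild type replicates 1 and 3, and were highest in wild type replicate 4. Tyms and Tk1, enzymes of thymidylate synthesis and salvage, had log2 fold changes of 0.01 and -0.13 with overlap.

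Among the G1 and G1/S genes, Ccnd1 (cyclin D1) had 56.7, 61.6 and 52.6 CPM in knockout, against 70.3, 94.2 and 69.9 CPM in wild type (-0.45 ± 0.16, SE; edgeR adjusted p = 0.637). Every knockout library of Ccnd1 lay below every wild type library, which held for 6.68% of all tested genes. Opposite strand exons of LTO1 cover 23.4% of its exon bases. Ccnd2 (cyclin D2) had 218, 152 and 152 CPM in knockout and 34.2, 67.3 and 346 CPM in wild type (0.22 ± 0.75, SE; edgeR adjusted p = 0.931). Its highest library was 10.1 times its lowest, both of them wild type. Cdk6, the kinase partner of both, had 91.5, 106 and 132 CPM in knockout and 104, 113 and 175 CPM in wild type. The E-type cyclins, which drive entry into S phase, were low, with 1.33, 0.899 and 1.03 CPM of Ccne1 in knockout and 0.592, 0.362 and 1.66 CPM in wild type. Ccne2 had 2.58, 1.68 and 1.22 CPM in knockout and 0.696, 0.725 and 2.23 CPM in wild type. Its level is uncertain, since 17.4% of its exon bases lie opposite exons of Ints8, which had between 543 and 1940 counts by library. Ccne1 and Ccne2 overlapped between the groups, as did E2f1, a factor of the E2F family, with a log2 fold change of 0.08.

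Further genes of the cycle were read from lists outside the 49. Of 40 other mitosis genes, 37 had a positive log2 fold change (median 0.74), and none passed after adjustment. Of the 40, 2 had an unadjusted edgeR p under 0.05 (both higher in knockout, as were 4.48% of all tested genes). The groups separated with knockout above in 4 (6.34% of all tested genes did) and with knockout below in 1 (6.68% did). The smallest p belonged to Cdc25c, the phosphatase that activates Cdk1, with 4.81, 2.88 and 2.44 CPM in knockout and 0.592, 0.634 and 1.60 CPM in wild type (1.84 ± 0.52, SE; edgeR adjusted p = 0.637). Ect2, which starts the cleavage furrow, and the kinase Melk followed with log2 fold changes of 1.23 and 1.1. Of 34 other replication genes, 28 were positive with a median of 0.16, and none had an unadjusted p under 0.05. Dbf4, the activator of the kinase Cdc7, and Orc6 of the origin recognition complex had log2 fold changes of 0.29 and 0.35. Of 13 other G1 regulators, 8 were positive with a median of 0.11, and the smallest p belonged to E2f3, a factor of the E2F family, at -0.40 ± 0.16 (SE; edgeR adjusted p = 0.637), followed by Ccnd3 and Cdk4.

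Of 20 CDK inhibitors and quiescence genes, 19 were tested and 14 were positive with a median of 0.10. Cdkn1b (p27), which holds cells out of the cycle, had 163, 140.02 and 117 CPM in knockout and 109, 105 and 110.03 CPM in wild type (0.37 ± 0.15, SE; edgeR adjusted p = 0.637). Its knockout libraries all lay above those of wild type. E2f4, a repressor of resting cells, and the inhibitor Cdkn2d followed at -0.27 and 0.53.

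Replication-dependent histone genes supply new chromatin during S phase, and most of their mRNAs end in a stem-loop without a poly(A) tail. Their counts can therefore depend on whether a library was selected for poly(A) tails, which was not examined here. Of 67 annotated genes 58 were tested, 4 had a count of 0 in all libraries, 51 were positive, and the median log2 fold change was 0.85. None passed after adjustment, while 24 of 58 had an unadjusted edgeR p under 0.05 (7.25% of all tested genes did), all of them higher in knockout. The knockout libraries lay above every wild type library in 24 and below in none, against 6.34% and 6.68% of all tested genes. Hist1h2bb had 62.3, 42.5 and 27.6 CPM in knockout and 18.3, 14.7 and 23.9 CPM in wild type (1.22 ± 0.32, SE; edgeR adjusted p = 0.637). Hist1h2bn and Hist1h2ab followed with log2 fold changes of 1.42 and 1.37. Knockout replicate 5 was the highest library in 52 of the 58 (19.9% of all tested genes were highest there). Without it 2 of the 58 had an unadjusted edgeR p under 0.05, and the share of all tested genes was not computed for that setting. Many of these genes are near-identical copies, so the split of reads between them is uncertain.

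**Figure D3:**
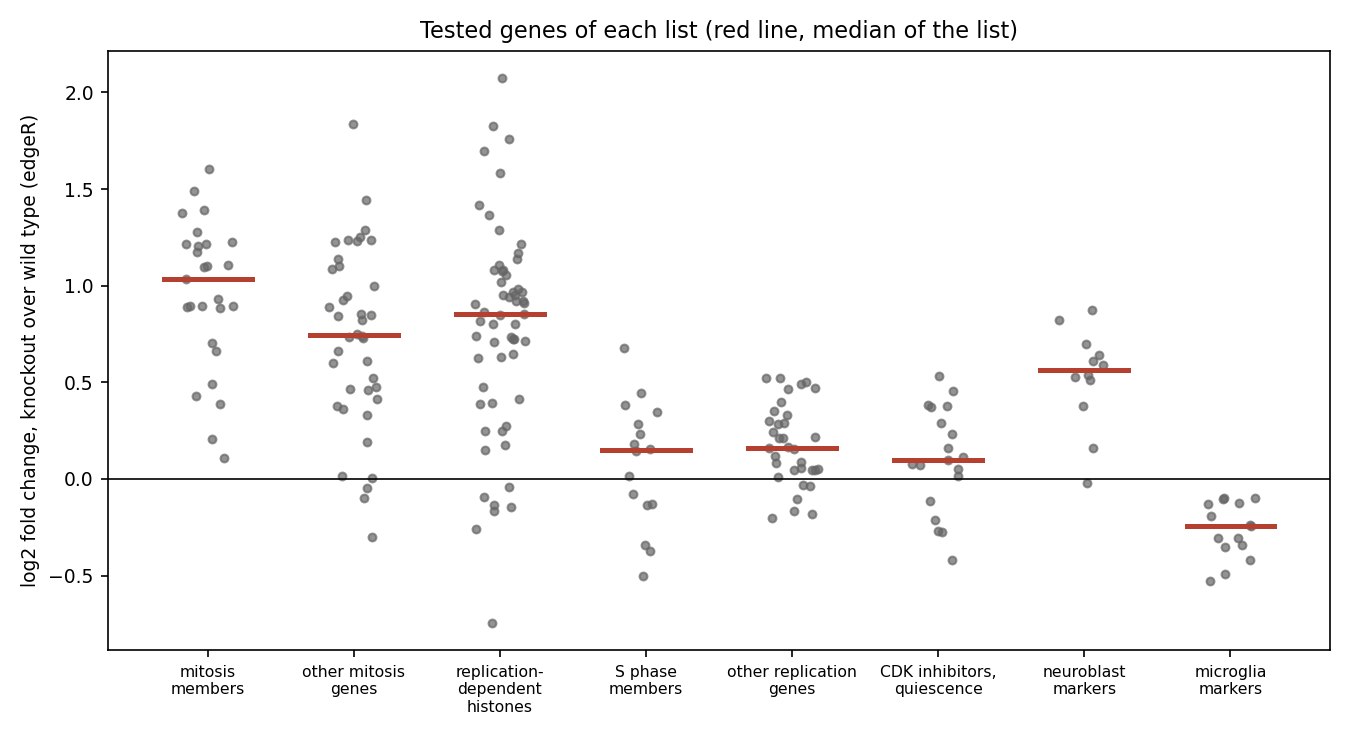
Log2 fold change of knockout over wild type (y axis) for each tested gene of 8 lists, with the median as a red line. The mitosis members (median 1.03), other mitosis genes (0.74) and histone genes (0.85) lie mostly above 0, S phase members (0.15) and other replication genes (0.16) lie around 0, and the microglia markers lie below it.

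Markers of neuroblasts had the same low libraries as the mitosis genes, and markers of microglia had them high. The 12 neuroblast markers summed to 1721, 1230 and 888 CPM in knockout and 437, 493 and 1845 CPM in wild type, lowest in wild type replicates 1 and 3. Of them 11 were positive with a median log2 fold change of 0.56, and none passed after adjustment or had an unadjusted edgeR p under 0.05. The 15 microglia markers summed to 30695, 38490 and 35151 CPM in knockout and 47882, 46190 and 29772 CPM in wild type, with 0 of 15 positive (median -0.24). In bulk libraries, fewer cells of a type and less RNA per cell cannot be told apart.

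Markers of other cell types, and of the labelled GABAergic cells, were read in the same way. The neural progenitor markers summed to 250.4, 149.7 and 149.4 CPM in knockout and 86.6, 68.1 and 131 CPM in wild type, and 9 of 9 tested were positive. Hes5, Egfr and Sox2, genes of neural stem cells, had the smallest p, with log2 fold changes of 2.04, 1.49 and 0.97. The oligodendrocyte precursor markers summed to 299.7, 239 and 142 CPM in knockout and 182, 7.34 and 67.0 CPM in wild type, with 8 of 8 positive and a median of 1.29. Astrocyte markers summed to 6233, 3486 and 3900 CPM in knockout and 3568, 610.1 and 284 CPM in wild type, with 9 of 9 positive and a median of 1.84, above that of the mitosis genes. Of the 9 astrocyte markers, 6 had separated groups with knockout above (6.34% of all tested genes did), and 4 had an unadjusted edgeR p under 0.05 (7.25% did). Oligodendrocyte markers had 8 of 8 positive, endothelial and mural markers 7 of 8, and GABAergic markers 8 of 8, with medians of 1.21, 1.02 and 0.63. None of these genes passed after adjustment, no marker of these lists was at 0 in all libraries, and their part in the differences of the mitosis genes was not tested. The libraries with few mitosis transcripts differed in ribosomal RNA, at 0.0473% of the counts of wild type replicate 1 and 17.5% of those of wild type replicate 3.

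Set against Dcx, Mki67 and Top2a separated the groups. Mki67 had 37.9, 35.3 and 36.8 counts per 100 counts of Dcx in knockout, against 17.5, 17.1 and 20.4 in wild type (36.6 ± 1.3 and 18.3 ± 1.78, SD, n = 3 each; exact permutation test, two-sided p = 0.1, adjusted over 28 ratios 0.2). That p is the smallest that 3 libraries against 3 can give. The ratio of the means was 2.00, and wild type replicate 4, the highest library for Mki67 alone, lay with the other wild type libraries. Top2a had 35.8, 31.3 and 28 counts per 100 of Dcx in knockout, against 17.0, 14.1 and 12.9 in wild type (31.7 ± 3.95 and 14.7 ± 2.11, SD, n = 3 each; exact permutation p = 0.1). Dcx itself had a log2 fold change of -0.02 (edgeR adjusted p = 0.993), which was 1.38 without wild type replicate 4 and 0.50 by limma-voom, and the list's other 11 markers were all positive.

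Per Dcx count, 17 of the 27 mitosis genes had every knockout library above every wild type library, against 0.685% of all tested genes. The other 10 were Ccnb2, Cdk1, Bub1b, Plk1, Aurka, Aurkb, Foxm1, Cenpa, Kif23 and Anln. Of the S phase genes 2 of 16 separated in this way, Rrm2 and Uhrf1, and of the G1 and G1/S genes none. All these ratios share 1 denominator, so they do not count as independent genes. The share of 0.685% is a weak comparison, since Dcx ranged from 74.6 to 482 CPM within wild type. A gene that does not follow Dcx can seldom separate in either direction (0.616% of all tested genes separated with knockout below). The count of separated mitosis genes varied with the neuroblast marker used as the denominator, and the shares for those markers have the same limit. Of the 27 mitosis genes, 18 separated per count of Sp8 and 18 per Stmn2, against 0.534% and 0.511% of all tested genes, 17 per Sox11 (0.47%), 16 per Dlx1 (0.528%), and 14 each per Sp9 (0.395%) and Igfbpl1 (0.279%). Fewer separated per Dlx5 (11, against 0.279%), Cd24a (10, against 0.226%), Dlx6 (5, against 0.168%), Tubb3 (5, against 0.174%) and Dlx2 (3, against 0.244%). Per Dlx5, 1 mitosis gene separated with knockout below wild type. For Mki67 alone 4 of the 12 denominators separated the groups, with ratios of the means from 1.35 to 2.00 over the 12, and for Top2a 10 of 12, from 1.53 to 2.16. Against the summed markers, the mitosis sum was 31.9, 34.2 and 38.7 per 100 in knockout, and 26.4, 23.5 and 23.9 per 100 in wild type.

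Set against Csf1r, the groups overlapped. Mki67 had 14.3, 9.26 and 7.58 counts per 1000 counts of Csf1r in knockout, against 1.29, 1.40 and 13.0 in wild type (exact permutation test, two-sided p = 0.3). Of the mitosis genes 2 of 27 had knockout above wild type in every library per Csf1r count, where 14.6% of all tested genes did. Mcm3 had 4.96, 4.68 and 4.58 counts per 1000 of Csf1r in knockout and 4.72, 4.48 and 5.59 in wild type (4.74 ± 0.195 and 4.93 ± 0.582, SD, n = 3 each; exact permutation p = 0.8). The separation of Mcm3 in CPM was thus absent per Csf1r, and Ccnd1, also separated in CPM, overlapped per Csf1r count. Pcna had 10.5, 9.81 and 7.18 counts per 1000 of Csf1r in knockout and 7.51, 5.79 and 5.23 in wild type (exact permutation p = 0.2).

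**Figure D4:**
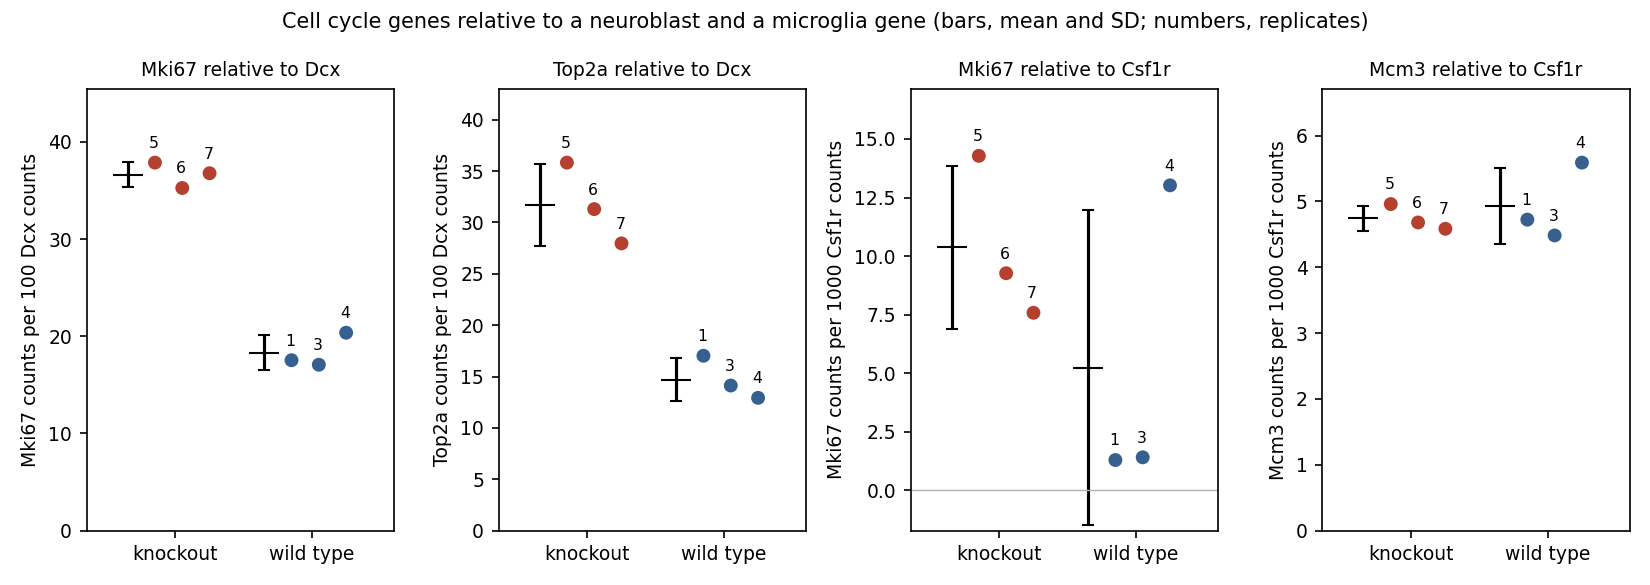
Counts of Mki67 and Top2a per 100 Dcx counts, and of Mki67 and Mcm3 per 1000 Csf1r counts, by library, knockout left of wild type, with bars for mean and SD. Mki67 per Dcx lies between 35.3 and 37.9 in knockout and between 17.1 and 20.4 in wild type, while both genes per Csf1r overlap between the groups.

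The size of the CPM differences and their p-values depended on single libraries. Of the 27 mitosis genes, 26, 27 and 27 had a positive log2 fold change without knockout replicate 5, 6 or 7. Without wild type replicate 1, 3 or 4 the positive mitosis genes numbered 24, 26 and 27. Without wild type replicate 4, the median log2 fold change of the mitosis genes was 2.00 and 37 of the 49 genes had an unadjusted edgeR p under 0.05 (17.2% of all tested genes did). Mki67 alone of the 49 then passed after adjustment (log2 fold change 2.47, edgeR adjusted p = 0.0448, against 0.0167% of all tested genes). Without wild type replicate 1 the median was 0.71, and 1 gene of the 49 had an unadjusted p under 0.05. None of the 49 passed edgeR's adjustment there, where 321 of the 17320 tested genes did. Without knockout replicate 5 or wild type replicate 3, 0 of the 49 had an unadjusted p under 0.05, and none passed edgeR's adjustment. The share of all tested genes with an unadjusted p under 0.05 was not computed for these settings. The median of the S phase genes was 0.41 without wild type replicate 4 and -0.00265 without wild type replicate 1. The median of the G1 and G1/S genes was 0.86 without wild type replicate 4, and it was -0.15 or -0.17 when wild type replicate 1 or 3 was left out. The count of mitosis genes separated per Dcx was between 17 and 22 when each library was left out in turn. It was 22 without wild type replicate 1, where 10.2% of all tested genes separated. A gene separated over all libraries stays separated when 1 is left out. The count thus could not fall below 17, and this repeat cannot show whether it depends on single libraries.

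**Figure D5:**
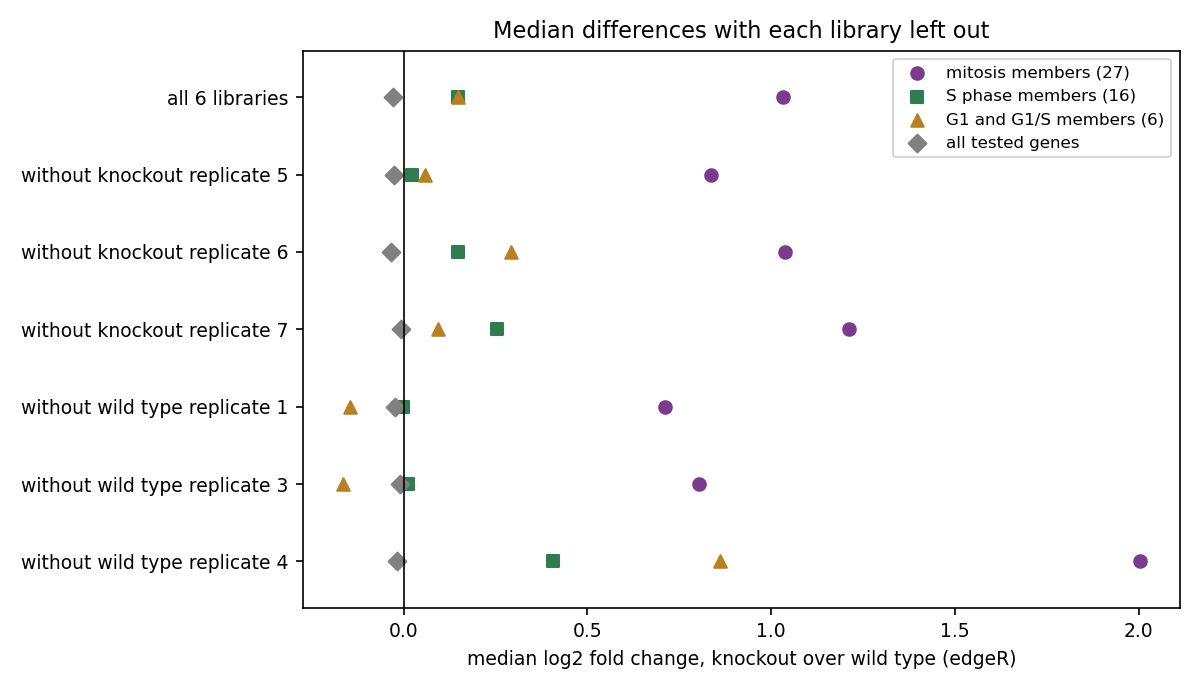
Median log2 fold change of knockout over wild type (x axis) of the mitosis, S phase, G1 and all tested genes, with all 6 libraries and without each library in turn (down the page). The mitosis median ranges from 0.71 without wild type replicate 1 to 2.00 without wild type replicate 4.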

How the data were processed

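RNA sequencing libraries of 6 mouse cortex samples were analysed, 3 labelled GTF2ird1-/- and 3 wild type, grouped by the labelled genotype. The deposited values are raw counts per gene, 1 file per library; per the submitters' processing notes, the authors used Trim Galore 0.60, STAR 2.7, HTSeq 1.31 and build mm10. The sources used here give neither annotation release nor strand setting. Summary lines that name no gene were left out; reads that hit no annotated gene held 40.0% to 58.2% of reads, and ambiguous reads 1.94% to 14.5%. Of 53379 identifiers, 53274 matched GENCODE M21 (GRCm38).

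The groups were compared by edgeR's quasi-likelihood test (edgeR 4.0.16, R 4.3.3; TMM scaling, filterByExpr, robust shrinkage), with two-sided Benjamini-Hochberg adjusted p-values over 17221 genes (threshold 0.05). The fit was tested on simulated data, where it recovered 50 of 100 genes changed 2-fold and 99 of 100 changed 4-fold. The simulated spread between libraries was a fixed value, and recovery at the spread of the mitosis genes was not tested. Ratios to Dcx or Csf1r were compared by exact permutation over libraries. Levels per length used exon length. The library total limits precision, and floors of 3 counts cover counting error only. DESeq2 1.42.0, limma 3.58.1 (limma-voom), other scalings and filters, protein-coding genes alone and leaving out each library were alternatives. The 49 genes and all lists were chosen with earlier results of these data known. Values in every library are given for Mki67, Top2a, Dcx and Csf1r and, per role group, the 4 genes with the smallest edgeR p and the 2 with the highest level per length; up to 3 genes with the smallest p are named from each other list. Some results that this rule would name are not reported here. Foxm1 and Aurkb, the neuroblast denominators other than Dcx and the library-by-library repeats of the ratio counts were chosen after values were seen.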

Additional observations from a re-analysis of the deposited data

How the results depend on the processing

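No paired analysis was possible because the groups share no replicate number. Among all tested genes, 28 passed by DESeq2, 5 without an expression filter and 0 with protein-coding genes alone, against 1 by edgeR. The log2 fold change of Dcx was 0.0376 with library totals and 0.50 by limma-voom, against -0.02. Library totals moved the median of all genes to 0.11. Members that turned direction were Mcm2 (0.0374) and Tk1 (0.00686) with library totals, Cdc6 (0.41) and Tk1 (0.063) by limma-voom, and Tyms (-0.0203) with protein-coding genes alone.

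Leaving out each library in turn gave ranges of 0 to 1 members higher, 0 to 0 lower and 1 to 321 of all tested genes called, the last without wild type replicate 1. The median log2 fold change ranged from 0.71 to 2.00 for mitosis and from -0.00265 to 0.41 for S phase genes. Dcx ranged from -0.43 to 1.38 (the last without wild type replicate 4) and Csf1r from -0.44 to -0.19. Histone genes with an unadjusted edgeR p under 0.05 numbered 2 to 30 of 58. Among these repeats the share of all tested genes was computed only without wild type replicate 4 (17.2%). Mitosis genes that turned were Ccnb2 (-0.33 to 1.32), Plk1 (-0.00608 to 1.23) and Foxm1 (-0.19 to 1.1). S phase genes that turned were Mcm2 (-0.23 to 0.18), Mcm5 (-0.0177 to 0.60), Mcm6 (-0.0103 to 0.43), Mcm7 (-0.0114 to 0.43), Cdc6 (-0.59 to 1.26), Tyms (-0.13 to 0.33) and Tk1 (-0.47 to 0.28). G1 genes that turned were Ccnd2 (-0.25 to 1.79), Cdk6 (-0.39 to 0.0225), Ccne1 (-0.00402 to 1.12) and E2f1 (-0.21 to 0.61). Beyond the smaller number of libraries, the cause was not tested. Levels near 3 counts, such as Birc5 in wild type replicate 3, are limited by depth.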
